A study of Mus musculus with 168 samples.

Results

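MicroRNAs were compared between the cortex of 10-month-old Q92 mice and the cortex of control mice of the same age. The 8 Q92 libraries and the 16 control libraries, 8 from Q20 mice and 8 from WT mice, were chosen by the genotype and age in their labels and make up 24 of the 168 cortex libraries of the series. Q92 and Q20 mice are heterozygous knock-in animals: one *Htt* allele is that of the mouse, and the other holds an inserted human *HTT* exon 1 with 92 CAG repeats in Q92 mice and 20 in Q20 mice. WT mice carry no engineered allele and are littermates of the Q20 line rather than of the Q92 line. The labels give the strain of all mice as C57BL/6. By the sex of the cage, whose code is in the library name, each group holds 4 females and 4 males. The code itself names no sex, and a cage was taken as female or male from the labels of its mice. The labels call 5 of the Q20 mice female, because 1 mouse labelled female carries the code of a cage whose other mice are labelled male. The cage codes place the Q92 mice in 4 cages and all 16 controls in 2, which Q20 and WT mice shared. No cage held both Q92 and control mice, so CAG length, breeding line and cage cannot be told apart. The fits treated each mouse as independent and held no term for the cage. The *Htt* transcript is not measured in small RNA and could not be used to check the labels. Further comparisons used heterozygous Q80, Q111 and Q175 knock-in mice of 10 months, with 8 libraries per genotype. They also used 24 libraries from Q92, Q20 and WT mice of 2 months, and levels of 10-month Q140 mice were plotted.

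A microRNA is cut from a hairpin precursor by Drosha and Dicer and guides a silencing complex to messenger RNAs that pair with its seed, bases 2 to 8 of the mature strand. In Huntington's disease (HD) the expanded CAG tract of huntingtin alters transcription, and the cortex is among the affected brain regions. The study describes Q92 mice as a line with molecular signs of disease and without a visible phenotype. The comparison with Q20 and WT mice asks whether a repeat of this length alters cortical microRNAs by 10 months.

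The sequences below are those of the microRNAs the results turn on. The first set holds both mature strands of 3 microRNAs that lie in the same imprinted cluster. They had the smallest p of Q92 against controls among microRNAs with a mean of at least 10 counts per library. The second set holds pairs that share a seed and differ between Q92 and Q175 mice, and the third set holds 2 let-7 strands that share the let-7 seed. Counts were made per hairpin, so the strands of a hairpin are not told apart. Seeds are in capitals, and the sequences are those of RefSeq for GRCm38.p6, in which 36 of the 39 microRNAs followed individually have a mature entry.
miR-673-5p: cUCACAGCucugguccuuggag
miR-673-3p: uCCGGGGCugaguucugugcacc
miR-381-5p: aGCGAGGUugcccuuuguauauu
miR-381-3p: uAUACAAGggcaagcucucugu
miR-541-5p: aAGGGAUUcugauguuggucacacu
miR-541-3p: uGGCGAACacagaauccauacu
miR-221-3p: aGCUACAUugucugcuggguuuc
miR-222-3p: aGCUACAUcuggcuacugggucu
miR-132-3p: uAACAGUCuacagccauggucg
miR-212-3p: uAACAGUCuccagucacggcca
let-7f-5p: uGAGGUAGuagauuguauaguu
let-7g-5p: uGAGGUAGuaguuuguacaguu
The 6 strands of Mir673, Mir381 and Mir541 have 6 different seeds, and among the 311 of 328 tested microRNAs that have a mature entry no other one carries any of them.

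Library totals lay between 3524007 and 5182163 counts in Q92 mice and between 2041741 and 5223075 in controls, with the lowest in Q20 male 2. Of all counts in the 24 libraries, 67.3% fell on the 329 microRNAs analysed, and each library correlated with the median profile at r of 0.9902 or more on the log scale. The tissue label was set beside marker microRNAs, with levels in CPM (counts scaled by TMM to a library total of 1000000). The summed neuronal list had a median of 122846 CPM in Q92 mice and 120844 CPM in controls. For the liver and muscle list the median sums were 1158 CPM in Q92 mice and 1116 CPM in controls. Within that list Mir122 of liver had a mean of 13.8 counts per library, Mir206 of skeletal muscle 0.5 and Mir192 4310. These sums cannot tell cortex from other brain regions.

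No microRNA passed the test for a difference between Q92 and control cortex at 10 months. Of 328 microRNAs tested with edgeR's quasi-likelihood F test, 0 passed a false discovery rate (FDR) of 0.05 (0%), and the smallest adjusted p was 0.634. DESeq2's Wald test also called 0, with 21 at an unadjusted p under 0.05. At an unadjusted p under 0.05 there were 23 microRNAs (7.01%), 9 higher (2.74%) and 14 lower (4.27%) in Q92 mice. In no case did all 8 Q92 mice lie above or below all 16 controls (0%). The log2 fold change of Q92 over controls was above 0 for 140 microRNAs (42.7%) and below 0 for 188 (57.3%), and its median was -0.02.

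For most abundant microRNAs the intervals of the fit were narrow, though they hold no variance between cages or breeding lines. Among the 198 microRNAs with a mean of at least 100 counts per library, the standard error of the log2 fold change had a median of 0.06, and 173 had a 95% interval that lay wholly inside a 1.25-fold change in either direction. For 188 of them the interval lay inside a 1.5-fold change. Over all 328 microRNAs the corresponding numbers were 187 and 237, since microRNAs with few counts had wide intervals. In the plot of fold change by abundance these are the long bars at the left.

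**Figure D1:**
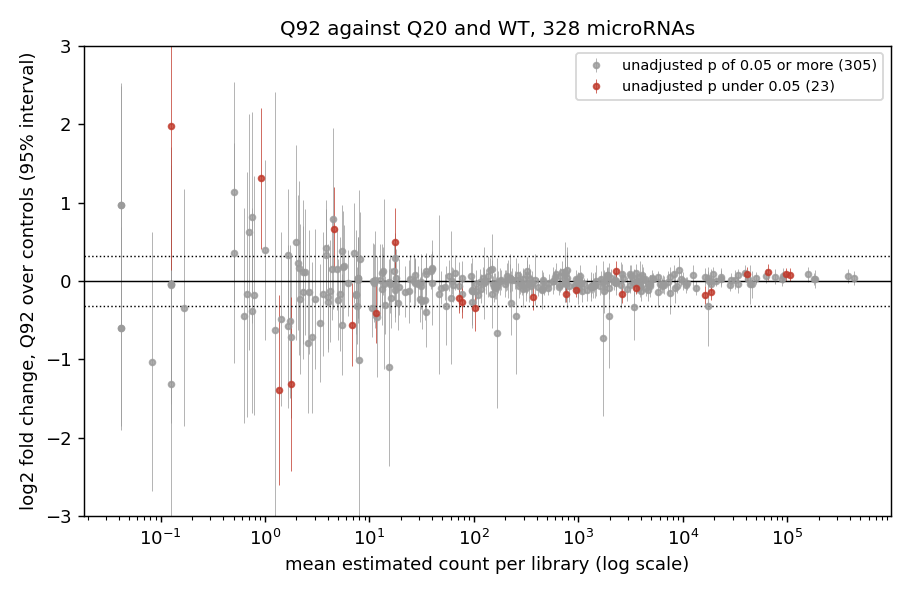
Log2 fold change of Q92 over controls for 328 microRNAs against the mean estimated count per library (log scale), with 95% intervals from edgeR; the dotted lines mark a 1.25-fold change and 4 intervals run past the axis. The 23 microRNAs with an unadjusted p under 0.05, in red, are spread over the whole range of abundance, and none passes FDR 0.05.

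Among microRNAs with a mean of at least 10 counts per library, the lower ones with the smallest p were Mir673, Mir381 and Mir541. All belong to the Dlk1-Dio3 cluster on chromosome 12, an imprinted region in which a large group of microRNAs is expressed from the maternally inherited chromosome. Mir673 (hairpin at chr12:109571990-109572080, plus strand) had levels between 147 and 176 CPM in the 8 Q92 mice, with a median of 163, and between 154 and 199 CPM in the 16 controls, with a median of 184. All 8 Q92 mice lay below the control median, but the ranges overlapped. Its log2 fold change was -0.17 (standard error 0.05, 95% interval -0.27 to -0.06, unadjusted p = 0.00329, adjusted p = 0.634).

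Mir381 (chr12:109726822-109726896, plus strand) ranged from 3039.8 to 3915 CPM in Q92 mice, with a median of 3291, and from 3256 to 4331 CPM in controls, with a median of 3866. The 2 highest Q92 mice lay above the control median and the other 6 below it. The log2 fold change was -0.17 (standard error 0.05, unadjusted p = 0.00387, adjusted p = 0.634).

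For Mir541 (chr12:109742409-109742498, plus strand) the Q92 mice had levels of 3602 to 4156 CPM with a median of 4051, and the controls 3974 to 5344 CPM with a median of 4239. All 8 Q92 mice lay below the control median, with a log2 fold change of -0.14 (standard error 0.05, unadjusted p = 0.00885, adjusted p = 0.647). The control groups themselves stood apart here. Levels were 3974 to 4491 CPM in Q20 mice and 4111 to 5344 CPM in WT mice, and Mir541 had the smallest p of all 325 microRNAs when Q20 was tested against WT (log2 fold change -0.16, standard error 0.05, unadjusted p = 0.00899, adjusted p = 0.786). Held against Q20 mice alone, the log2 fold change of Mir541 in Q92 mice was -0.05 (unadjusted p = 0.251), and held against WT mice alone it was -0.20 (unadjusted p = 0.0011). For Mir673 the same values were -0.12 (unadjusted p = 0.0514) and -0.18 (unadjusted p = 0.00425), and for Mir381 they were -0.14 (unadjusted p = 0.0448) and -0.18 (unadjusted p = 0.00928).

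The library names carry an L number of 6, 7 or 8, whose meaning the labels do not give, and it was unevenly spread: L number 6 was found in 5 Q92, 4 Q20 and 3 WT libraries. Within those libraries the log2 fold change was -0.16 for Mir673 (unadjusted p = 0.0565), -0.19 for Mir381 (unadjusted p = 0.0184) and -0.10 for Mir541 (unadjusted p = 0.0956). L number 8 was found in 2 Q92, 1 Q20 and 4 WT libraries, and within those the values were -0.21 for Mir673 (unadjusted p = 0.0617), -0.21 for Mir381 (unadjusted p = 0.0318) and -0.12 for Mir541 (unadjusted p = 0.132). L number 7 held 1 Q92 library and was not fitted on its own.

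**Figure D2:**
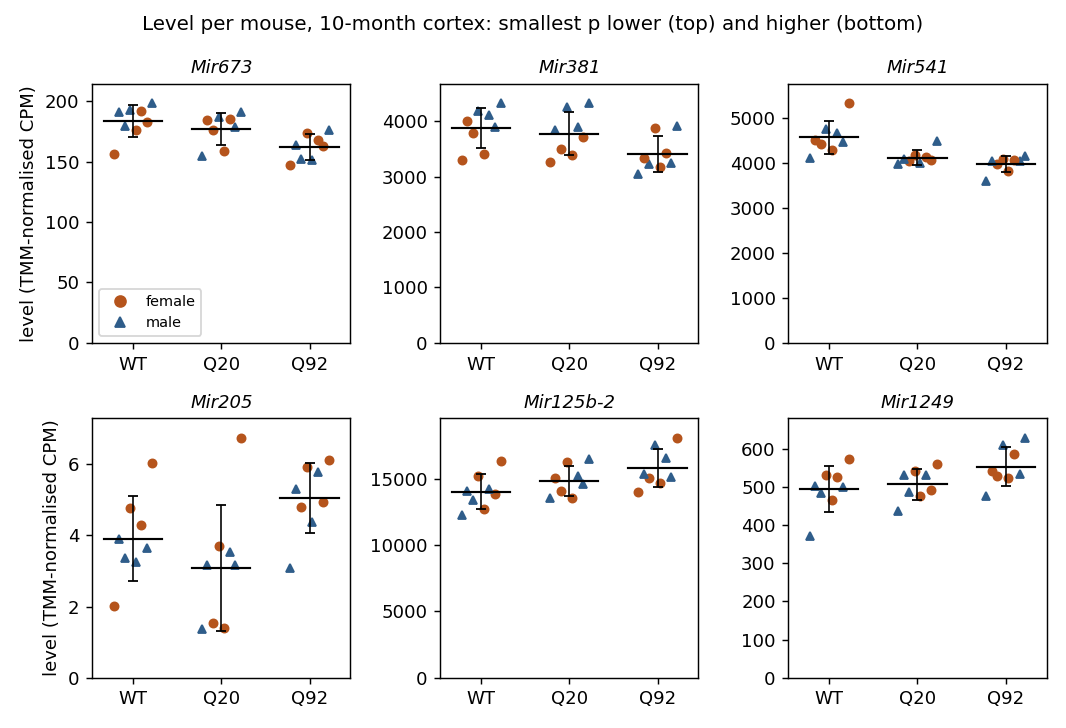
Level in TMM-normalised CPM of the 3 lower (top row) and 3 higher (bottom row) microRNAs with the smallest p. Only microRNAs with a mean of at least 10 counts per library were ranked. Each mouse is 1 point, with the mean as a line and the SD as a bar over 8 mice per group. For Mir673 and Mir541 all Q92 mice lie under the median of the 16 controls, and in every panel the range of Q92 overlaps that of the controls.

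Of the 48 listed members of the Dlk1-Dio3 cluster, 34 were tested and 14 had no transcript of their name or no count. Of the 34, 11 had a log2 fold change above 0 and 23 below 0, with a median of -0.06 beside -0.02 over all microRNAs, and 3 were lower at an unadjusted p under 0.05. Over all microRNAs 57.3% were below 0 and 4.27% were lower at that p. For 30 of the cluster members the interval lay inside a 1.25-fold change. The summed level of the members with counts was 28594 to 31224 CPM in Q92 mice and 27530.0 to 33056 CPM in controls, so the sums overlapped. The most abundant members weigh most in such a sum. Those tested, Mir411 and Mir300, had log2 fold changes of 0.03 (standard error 0.04) and -0.0045 (standard error 0.03). Along the 175.9 kb from the first to the last tested member, the 3 lower microRNAs were the 1st, 22nd and 31st in order. Mir493, next to Mir673, had a log2 fold change of 0.07 (standard error 0.10), and Mir487b, next to Mir381, had 0.08 (standard error 0.07). Mir377 and Mir412, on either side of Mir541, had -0.07 (standard error 0.05) and 0.11 (standard error 0.11).

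**Figure D3:**
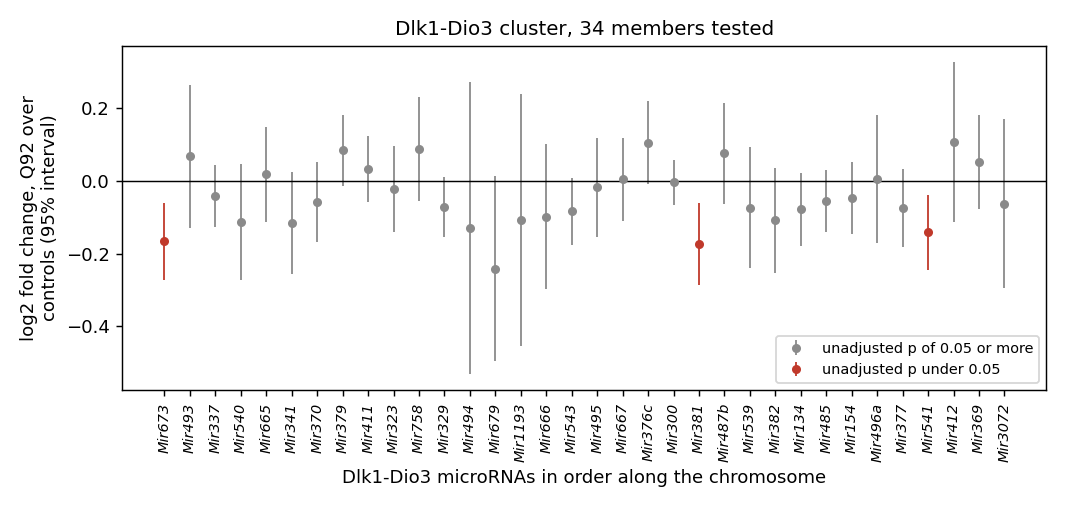
Log2 fold change of Q92 over controls with its 95% interval for the 34 tested microRNAs of the Dlk1-Dio3 cluster, in their order along the chromosome. The 3 members with an unadjusted p under 0.05, in red, are not adjacent, and the intervals of the others include 0.

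The other lower microRNAs of the 8 with the smallest p and a mean of at least 10 counts were Mir3057, Mir375, Mir383, Mir184 and Mir320. Their log2 fold changes ran from -0.35 to -0.11, with unadjusted p-values from 0.0143 to 0.0221. Mir375, known from pancreatic islets and neuroendocrine cells, had levels of 65.7 to 92.6 CPM in Q92 mice (median 75.4) and 72.1 to 117 CPM in controls (median 84.7), with a log2 fold change of -0.20 (standard error 0.08). Mir184, abundant in the lens and cornea and also present in brain, had the widest difference, with 17.04 to 24.3 CPM in Q92 mice (median 19.1) and 16.4 to 48.5 CPM in controls (median 24.03), and a log2 fold change of -0.35 (standard error 0.14). WT female 4, at 48.5 CPM, was the highest control. Within the libraries of L number 8 the log2 fold change was -0.03 for Mir184 and -0.02 for Mir375. Mir320, whose precursor is made without Drosha, had a log2 fold change of -0.11 (standard error 0.05), which was -0.14 (unadjusted p = 0.0138) against Q20 alone and -0.05 (unadjusted p = 0.308) against WT alone. Of the 4 Drosha-independent microRNAs tested, it was the 1 with an unadjusted p under 0.05, beside 7.01% over all microRNAs. Mir320 was named for its p, so this count is no independent evidence. Mir484, the most abundant of the 4, had a log2 fold change of 0.04 (standard error 0.06).

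The 8 higher microRNAs named were those with the smallest p at a mean of at least 10 counts per library. They were Mir205, Mir125b-2, Mir1249, Mirlet7f-2, Mirlet7g, Mir29a, Mir126a and Mir365-1, with unadjusted p-values from 0.0250 to 0.0635. Mir511, with fewer counts, was higher at a smaller unadjusted p and is given below. Mir205, an epithelial microRNA, was rare, with a mean of 17.7 counts per library. Its level was 3.10 to 6.11 CPM in Q92 mice (median 5.12) and 1.38 to 6.75 CPM in controls (median 3.44), and 7 of 8 Q92 mice lay above the control median. The log2 fold change was 0.50 (standard error 0.21, 95% interval 0.07 to 0.93), and it was 0.25 (unadjusted p = 0.359) in the libraries with L number 6, 0.71 (unadjusted p = 0.0591) in those with L number 8, 0.71 against Q20 alone and 0.34 against WT alone. Mir125b-2, one of the hairpins that give miR-125b, a microRNA of neurons and glia, had 14003 to 18101 CPM in Q92 mice (median 15234) and 12284 to 16483 CPM in controls (median 14143), with a log2 fold change of 0.12 (standard error 0.05). Since Mir125b-1 gives the same mature strand, reads can be divided between them; their sum gave 0.13 (unadjusted p = 0.0236).

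The let-7 family, which restrains growth and developmental programmes, holds both Mirlet7f-2 and Mirlet7g. Mirlet7f-2 had 20501 to 26598 CPM in Q92 mice (median 22860) and 19465 to 23403 CPM in controls (median 21835), with a log2 fold change of 0.09 (standard error 0.04). Mirlet7g had 8730 to 11627 CPM in Q92 mice (median 9743) and 7757 to 10049 CPM in controls (median 9255), also with 0.09 (standard error 0.04). Of the 8 tested members of the family list, 5 had a log2 fold change above 0 and 3 below 0, and all 8 had an interval inside a 1.25-fold change. Members of this family differ by few bases, so their separate values are uncertain.

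MicroRNAs of brain cell types showed no difference at FDR 0.05 in Q92 mice. For the counts below, 7.01% of all microRNAs had an unadjusted p under 0.05. Of 22 neuronal microRNAs tested, 0 had an unadjusted p under 0.05, 7 had a log2 fold change above 0 and 15 below 0, beside 57.3% below 0 over all microRNAs, and the median was -0.04. Mir9-2 and Mir128-1, the most abundant of them, had log2 fold changes of 0.02 (standard error 0.06) and 0.09 (standard error 0.05). Of the oligodendrocyte microRNAs, Mir219a-2 had 0.04 (standard error 0.04) and Mir219a-1, with few counts, -0.28 (standard error 0.17). Of 5 microglial and inflammatory microRNAs, Mir511 was higher at an unadjusted p of 0.0154 with a mean of 4.58 counts per library, and Mir150, the most abundant, had 0.14 (standard error 0.08). Of 5 vascular microRNAs, 0 had an unadjusted p under 0.05, and the endothelial Mir126a had 0.10 (standard error 0.05). The erythrocyte microRNA tested, Mir144, had 0.06 (standard error 0.08).

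Markers of tissue next to the cortex gave no call between Q92 mice and controls. Mir204 and 5 further microRNAs linked to the choroid plexus, the epithelium that secretes cerebrospinal fluid, had a median log2 fold change of -0.49, 5 of 6 below 0, yet 0 of them had an unadjusted p under 0.05. Their summed level was 2869 to 7092 CPM in Q92 mice (median 3157) and 2607 to 12063 CPM in controls (median 3994). Mir1912 had -1.10 (standard error 0.61) and Mir1298 -0.73 (standard error 0.48). The control groups were apart by a like amount: Q20 over WT had a log2 fold change of 1.08 (standard error 0.63) for Mir1912, 0.93 (standard error 0.52) for Mir1298 and 0.58 (standard error 0.28) for Mir204, with adjusted p = 0.786 for each by edgeR. In the fit by sex, Mir1298 had -1.32 (standard error 0.68) in females and -0.22 (standard error 0.64) in males, and Mir1912 had -2.09 (standard error 0.98) and -0.49 (standard error 0.78). The differences between the sexes had unadjusted p-values of 0.240 for Mir1298 and 0.226 for Mir1912. Ciliated cell microRNAs (4 tested, median -0.15) and the Mir200 family with the Mir183 cluster (8 tested, median -0.19) had 0 members with an unadjusted p under 0.05 as well, and their summed levels overlapped, at 503 to 1087 CPM beside 468 to 1539 CPM and 440.5 to 967 CPM beside 352 to 1745 CPM. Whether the amount of such tissue in a dissection bears on other microRNAs was not tested, and in bulk tissue fewer cells of a type and less RNA per cell cannot be told apart.

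Among the other families fixed as lists, none had a member past FDR 0.05. Over all microRNAs 42.7% had a log2 fold change above 0 and 7.01% an unadjusted p under 0.05. All 5 tested members of the Mir15, Mir16, Mir195 and Mir497 family had a log2 fold change above 0 (median 0.08), with 0 at an unadjusted p under 0.05, and Mir195a turned to the other sign in females alone. In the Mir99, Mir100 and Mir125 families 5 of 6 were above 0 (median 0.07), and Mir125b-2 alone had an unadjusted p under 0.05. In the Mir30 family Mir30c-1 had -0.08 (unadjusted p = 0.0467) and Mir30a, the most abundant, 0.03 (standard error 0.04). The Mir181 family (6 tested, median 0.02), the Mir17-92 cluster with its paralogs (13 tested, median 0.02), the Mir148 and Mir152 family (3 tested, median -0.02), the Hox-cluster microRNAs (3 tested, median 0.11) and the liver and muscle microRNAs (8 tested, median -0.01) had 0 members with an unadjusted p under 0.05. So did the 4 microRNAs that earlier had the smallest p in Q92 cortex at 2 or 6 months, with log2 fold changes of -0.04 to 0.11.

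The effect of Q92 was then compared between sexes and between ages. A difference between males and females passed FDR 0.05 for 0 of 328 microRNAs (0%). An unadjusted p under 0.05 was found for 9 (2.74%), of which 3 (0.915%) were more positive and 6 (1.83%) more negative in males. DESeq2's Wald test called 0. The smallest p belonged to Mir381, with a log2 fold change of -0.04 (standard error 0.07) in females and -0.31 (standard error 0.07, adjusted p = 0.0486) in males in the joint fit. The difference of -0.27 between the sexes (standard error 0.10) had an unadjusted p of 0.0104 and an adjusted p of 0.9999, so it is not shown that the sexes differ. In a fit of the male mice alone, Mir381 had -0.30 and an adjusted p of 0.152.

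Between 2 and 10 months, other mice of the same genotypes being used at each age, a change in the Q92 effect passed FDR 0.05 for 0 of 328 microRNAs (0%). At an unadjusted p under 0.05 there were 30 (9.15%), 12 upward (3.66%) and 18 downward (5.49%). The smallest p was that of Mir541. Its log2 fold change in Q92 mice was 0.18 (standard error 0.05) at 2 months and -0.13 (standard error 0.06) at 10 months in the joint fit, a difference of -0.31 (standard error 0.08, adjusted p = 0.0652). DESeq2's Wald test (adjusted p = 0.0316), an edgeR fit limited by its expression filter (adjusted p = 0.0476) and an edgeR fit with a replicate block (adjusted p = 0.0386) placed Mir541 past the threshold. No microRNA passed in the other edgeR fits. Their smallest adjusted p was 0.101 with the L number as covariate, 0.0792 with the labels' sex and 0.0691 with another normalization. Of the 34 cluster members tested, 5 had an unadjusted p under 0.05 for this change, all downward, among them Mir541 and Mir673 (difference -0.19, standard error 0.06). Mir186 was likewise higher at 2 months (log2 fold change 0.13, standard error 0.03, adjusted p = 0.0213) and had 0.01 (standard error 0.03) at 10 months, with an adjusted p of 0.313 for the difference.

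The microRNAs of HD cortex whose level follows CAG length were examined as a list of 22, which the study and an earlier analysis drew from these samples, so it is no independent evidence. In Q92 mice 0 of 22 passed FDR 0.05 and 1, Mir125b-2, had an unadjusted p under 0.05. The log2 fold change over controls was above 0 for 15 and below 0 for 7, with a median of 0.03. Over all microRNAs 42.7% were above 0 and 7.01% had an unadjusted p under 0.05. The median over all microRNAs rose with abundance, from -0.02 for the 328 to 0.03 for the 40 with a mean of at least 10000 counts. The list was not matched for abundance. For 20 of the 22 the 95% interval lay inside a 1.25-fold change, and the exceptions were Mir615 and Mir10b. Mir132 and Mir212, which are induced by neuronal activity and share a seed, had log2 fold changes of -0.04 (standard error 0.06) and -0.05 (standard error 0.06). Mir221 and Mir222, encoded side by side on the X chromosome, had -0.05 (standard error 0.05) and -0.06 (standard error 0.04). Mir181a-2, the most abundant member, had 0.04 (standard error 0.04). The sign turned in at least 1 alternative fit for 11 of the 22, among them Mir132, Mir212 and Mir221. Mir10b was another, at 0.11 (standard error 0.19) in the main fit and -0.17 in male mice alone.

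Q92 mice were also tested directly against Q175 mice, which carry the longest repeat, without the shared controls. The Q175 allele arose from the Q140 line by spontaneous expansion, so it is a different knock-in line from Q92, and repeat length cannot be told apart from line and cage here either. Of 325 microRNAs, 33 passed FDR 0.05 (10.2%), 16 higher (4.92%) and 17 lower (5.23%) in Q92 mice. The L number of the library name was unevenly spread between these groups too, and with it as covariate 28 passed. At an unadjusted p under 0.05 there were 28 higher (8.62%) and 37 lower (11.4%). All 8 Q92 mice lay above all 8 Q175 mice for 6 microRNAs (1.85%) and below them for 4 (1.23%). Of the 22 listed microRNAs, 6 were higher and 6 lower in Q92 than in Q175. The list was drawn for CAG length from samples that include these Q175 mice, so these counts are no independent evidence.

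Mir135b (chr1:132198088-132198184, plus strand) had the smallest p. Its level was 61.7 to 77.6 CPM in Q92 mice, 56.2 to 89.0 CPM in controls and 42.3 to 53.4 CPM in Q175 mice. The Q92 mice overlapped the controls and did not overlap Q175, with a log2 fold change over Q175 of 0.56 (standard error 0.06, adjusted p = 9.83e-06) and over controls of -0.04 (standard error 0.07).

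Mir221 (chrX:19146294-19146388, minus strand) had 2129 to 2588 CPM in Q92 mice, 2070.1 to 3053 CPM in controls and 1771 to 2019 CPM in Q175 mice, and a log2 fold change of Q92 over Q175 of 0.33 (standard error 0.04, adjusted p = 6.45e-05). Mir222, with the same seed, had 0.24 (standard error 0.05, adjusted p = 0.00747). Mir132 (chr11:75173682-75173747, plus strand) had 7061 to 7822 CPM in Q92 mice, 5903 to 9377 CPM in controls and 5278 to 6394 CPM in Q175 mice, with 0.32 (standard error 0.04, adjusted p = 6.54e-05). Mir212, which shares its seed and its locus, had 0.31 (standard error 0.05, adjusted p = 0.000348). Both seed pairs therefore stood higher in Q92 than in Q175 mice. Mir128-2, a neuronal microRNA, and Mir674 were the other 2 of the 5 higher microRNAs with the smallest p, with 0.26 (standard error 0.04) and 0.29 (standard error 0.05).

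In the other direction, Mir615, a Hox-cluster microRNA, was at 0.619 to 1.26 CPM in Q92 mice, 0.210 to 1.90 CPM in controls and 2.18 to 6.16 CPM in Q175 mice, with a log2 fold change of Q92 over Q175 of -1.87 (standard error 0.25, adjusted p = 6.45e-05). It rests on few reads, with a mean of 11.7 counts per library in that fit. Mir667 and Mir541, both of the Dlk1-Dio3 cluster, were lower in Q92 than in Q175, with log2 fold changes of -0.26 (standard error 0.04) and -0.27 (standard error 0.04), each with an adjusted p of 0.000213. For Mir541 the 8 Q92 mice, at 3602 to 4156 CPM, lay below all 8 Q175 mice, at 4450 to 5228 CPM. Mir467d was lower with -0.68 (standard error 0.12) and Mir181a-2 with -0.19 (standard error 0.04). Mir205 was higher in Q92 than in Q175 with 1.001 (standard error 0.23, adjusted p = 0.00776), and Mir673 had -0.12 (standard error 0.06, adjusted p = 0.238).

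**Figure D4:**
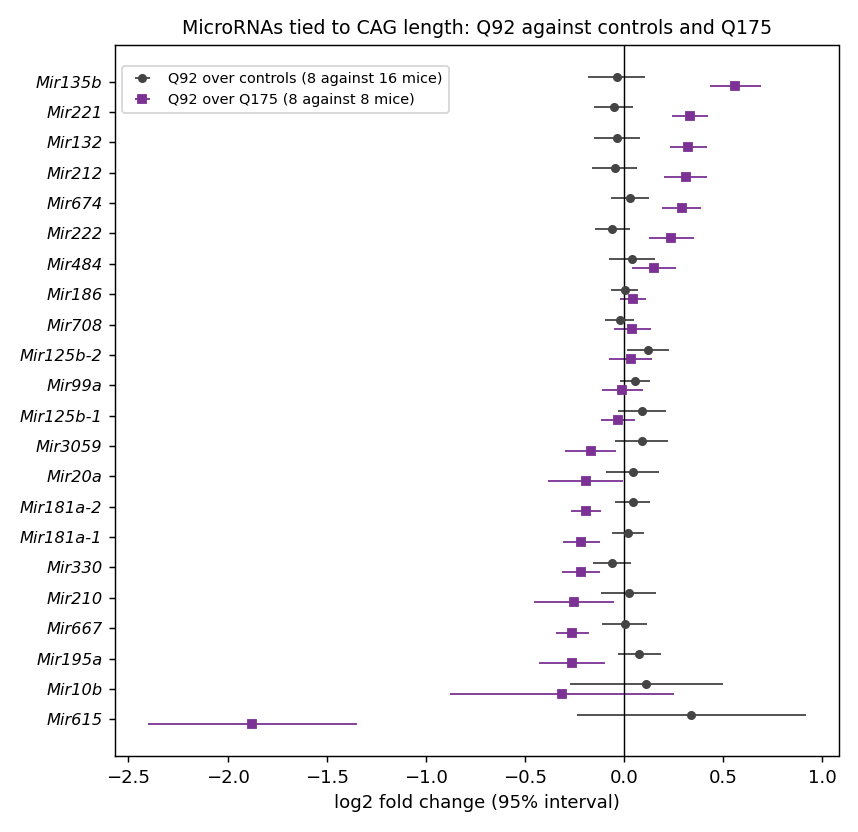
Log2 fold change with 95% interval for the 22 microRNAs named for CAG length, sorted by the value over Q175. Grey circles are Q92 over controls (8 against 16 mice), and purple squares are Q92 over Q175 (8 against 8 mice). The grey intervals include 0 except for Mir125b-2, whereas 12 purple values pass FDR 0.05, 6 on each side. The list was drawn from samples that include these mice, so these counts are no independent evidence.

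**Figure D5:**
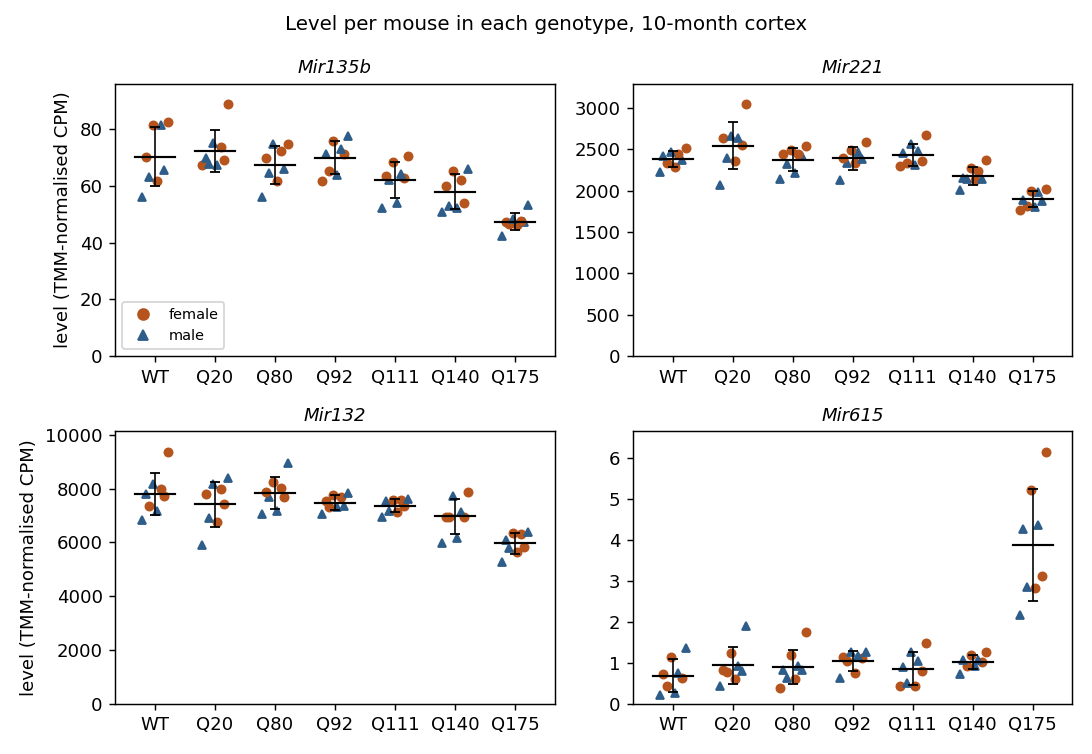
Level in TMM-normalised CPM of Mir135b, Mir221, Mir132 and Mir615 in the 10-month cortex of all 7 genotypes, 1 point per mouse, with the mean as a line and the SD as a bar over 8 mice. Q92 mice lie within the range of WT and Q20 mice in each panel, and Q175 mice lie apart from Q92.

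Against the neighbouring repeat lengths, 0 microRNAs passed FDR 0.05 (0%) by edgeR with sex of the cage as the only covariate. Q92 and Q80 mice differed for 0 of 326 microRNAs, with 33 (10.1%) at an unadjusted p under 0.05, 20 higher (6.13%) and 13 lower (3.99%) in Q92 mice, and DESeq2's Wald test called 2. L number 8 was found in Q92 libraries but in no Q80 or Q111 library of 10 months. With the L number of the library name as a covariate, 8 microRNAs had an unadjusted p under 0.05 against Q80, and the smallest adjusted p was 0.963. Mir673 had the smallest p, with a log2 fold change of Q92 over Q80 of -0.22 (standard error 0.05, adjusted p = 0.123), and DESeq2 called it along with Mir183. Q92 and Q111 mice differed for 0 of 325 microRNAs, with 45 (13.8%) at an unadjusted p under 0.05, 18 higher (5.54%) and 27 lower (8.31%), and DESeq2 called 14. Mir383, a brain microRNA, had the smallest p there, with -0.28 (standard error 0.06, adjusted p = 0.0647), and Mir381 had -0.24 (standard error 0.06, adjusted p = 0.0719). With the L number as covariate edgeR called Mir375, Mir34c, Mir34b and Mir1912, and with a replicate block it called Mir423, Mir381 and Mir383. The calls against Q111 thus changed with the setting. Mir205 had 0.46 (standard error 0.19) against Q80 and 0.47 (standard error 0.18) against Q111. These comparisons share the same 8 Q92 libraries and are not independent of each other or of the comparison with controls. The control groups, Q20 and WT, differed for 0 of 325 microRNAs (0%), with 12 (3.69%) at an unadjusted p under 0.05, and DESeq2 called 0.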

How the data were processed

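Small RNA from mouse cortex was sequenced by the authors on Illumina HiSeq instruments (CASAVA 1.8.2 in the submitters' processing notes), and clipped reads were aligned with STAR to mm10 (GRCm38). The deposited values are estimated counts per Ensembl transcript, without normalization. The methods name HTSeq as counter, but 48.1% of the deposited values above 0 are not whole, and all were rounded here. An FPKM table was not used. Of 1626 transcripts, 1228 were named with GENCODE vM21, and 329 of the 480 microRNAs retained by the study matched by symbol. The other 151 were not analysed here.

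MicroRNAs with at least 1 count were fitted in edgeR 4.0.16 (R 4.3.3) with TMM factors and sex of the cage as covariate, and two-sided p-values of its quasi-likelihood test (robust option) were given a Benjamini-Hochberg adjustment. DESeq2 1.42.0, the tool of the study's methods, was an alternative. Standard errors come from the coefficient and its F value, and CPM levels from TMM over the 56 libraries of 10-month mice. The code was tested on simulated data. Named are the 8 higher and 8 lower microRNAs with the smallest p and a mean of at least 10 counts, members of the lists (the 2 smallest p and 2 highest means), and 5 calls per direction against Q175. Mir511 and Mir183, the calls against Q111 in other settings, the cluster neighbours and repeated mentions of these microRNAs in other comparisons were added once values had been seen. The members and lists were chosen with earlier results of these data known. Library totals set the precision for rare microRNAs. Alternatives covered normalization, tool, feature filter, sex, the L number of the library name, the control group, single libraries left out and a replicate block.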

Additional observations from a re-analysis of the deposited data

Results flagged for a closer look

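In 120 groups of 8 libraries, those of Q92, Q20 and WT for 39 microRNAs and for the library totals, the gap from the highest or lowest value to its neighbour, as a share of the whole range, passed Dixon's critical value at the 95% level in 9, where chance flags about 1 group in 20. None of the 9 was a Q92 library. Q20 male 2, the library with the lowest total, accounted for 4: it was lowest for Mir126a at 6804 CPM, for Mir128-2 at 10790.0 CPM and for Mir29a at 18840.0 CPM, and highest for Mir541 at 4491 CPM. Q20 female 1 was highest for Mir135b at 89.02 CPM and for Mir205 at 6.753 CPM. WT female 4 was highest for Mir184 at 48.45 CPM and for Mir3057 at 25.78 CPM, and WT female 2 was highest for Mir126a at 10410.0 CPM.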

How the results depend on the processing

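For Q92 against controls, 0 microRNAs passed FDR 0.05 in each of the 17 other settings and the 24 fits without 1 library. The number at an unadjusted p under 0.05 was 14 without Q92 male 2 and 32 without Q92 male 4, 12 in libraries with L number 6 and 12 in those with L number 8, 10 in females and 17 in males. It was 101 when all transcripts with a count were tested. The sex difference and Q20 against WT also gave 0 in each setting. The age difference gave 1 call, Mir541, with DESeq2, with edgeR's expression filter and with the replicate block. Q92 against Q80 gave 2 with DESeq2, and its number at an unadjusted p under 0.05 was 8 with the L number as covariate beside 33. Q92 against Q111 gave 14 with DESeq2, 4 with the L number as covariate, 3 with the replicate block and 0 to 5 without 1 library, where 5 were reached without Q111 male 1, Q111 female 1 or Q92 female 4, 4 without Q92 male 4 and 3 without Q92 male 1. Q92 against Q175 gave 28 to 34 calls in other settings and 27 to 36 without 1 library. Samples were not treated as paired by replicate number outside the block fits. Of 15 same-numbered pairs, 4 had deviations that correlated over 0.1, with r from -0.524 to 0.504. Pairs of other numbers were not examined, so this check cannot tell whether the numbers pair the samples. The block moved no other count past 1.5 times. The fit within L number 8, library size alone for Q175 and the fits without 1 library for Q111 and Q175 were added after seeing the data.

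Of 1746 values of single microRNAs under other settings, 1713 kept sign and side of the threshold and 33 reversed sign, all log2 fold changes of Q92 over controls, for which the cause was not tested. With the L number as covariate Mir186 had -0.0037. With library size alone Mir667 had -0.0103 and Mir186 -0.014. Against Q20 alone Mir132 had 0.016, and against WT alone Mir221 had 0.0092, Mir667 -0.044 and Mir186 -3.7e-05. With L number 6 alone Mir212 had 0.0102 and Mir210 -0.0198, and with L number 8 alone Mir135b had 0.108, Mir221 0.000317, Mir667 -0.00198, Mir210 -0.124 and Mir186 -0.000136. In females Mir195a had -0.0102 and Mir484 -0.012, and in males Mir212 had 0.011, Mir135b 0.058, Mir181a-1 -0.0087, Mir210 -0.0204 and Mir10b -0.17. Without 1 library, Mir667 ranged from -0.013 to 0.022, Mir210 from -0.013 to 0.057, Mir10b from -0.0025 to 0.22 and Mir186 from -0.011 to 0.0203.

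Counts limit rare microRNAs: over all 328, 187 intervals lay inside a 1.25-fold change, beside 173 of the 198 with at least 100 counts.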
